A study of Mus musculus with 8 samples.

Results

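The ERK feedback and early response genes are 10 genes read as a measure of ERK signalling, taken by their symbols from 20278 genes. They are Spry2, Spry4 and Spred1 (inhibitors of Ras and Raf activation), Dusp4 and Dusp6 (phosphatases that switch ERK off), Etv4 and Etv5 (ETS family transcription factors), and Egr1, Fos and Ier3 (immediate early genes). All 10 were among the 15287 genes that passed the filter on low counts. Growth factors such as FGFs act through Ras, Raf and MEK on ERK, and active ERK turns on early response genes within minutes together with inhibitors that damp the same cascade. In mouse ESCs the FGF4 made by the cells themselves drives ERK and favours exit from self-renewal, which is why a MEK inhibitor is part of the 2i medium.

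N33, a mouse ESC line labelled C57BL/6 (C57BL/6J in the study's methods), was grown in 4 culture conditions with 2 samples each, and every result below rests on this line alone. The −F cells grew on gelatin and the F cells on mitomycin C-treated MEF feeders, both in serum (20% FBS) with LIF at 1000 U/ml. The F2i cells had feeders, the same serum and LIF, and 2i, whereas the NB2i cells were kept in N2B27 with 2i and LIF on poly-L-ornithine and laminin, with neither serum nor feeders. 2i combines PD0325901, which blocks MEK, with CHIR99021, which blocks GSK3. They were used at 1 μM and 3 μM in N2B27, and a separate dose for F2i is not given in the labels. The study's qPCR methods describe freeing ESCs from feeders by repeated differential adherence, a step that the cultures without feeders do not need. Its section on RNA sequencing does not mention this step, and fibroblast markers were detected in F and F2i (below). The design calls the samples biological duplicates, but nothing says that they came from separate cultures, so the tests measure the spread between these samples.

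Poly-A RNA was sequenced to between 20129641 and 20664488 expected counts per sample, so depth was nearly equal. ESC identity was checked with 6 markers (Pou5f1, Sox2, Zfp42, Esrrb, Dppa5a and Nanog), all detected in every sample. Their summed level, most of it Dppa5a, was 2978 to 3149 FPKM in −F, 3092 to 3382 in F, 3822 to 3906 in F2i and 3775 to 3839 in NB2i. The others did not all follow the sum: Nanog had means of 204 FPKM in −F and 473 in F2i, and Sox2 of 261 in −F and 215 in NB2i. FPKM is the read number scaled to transcript length and library depth, so that levels can be compared between genes. All 8 samples were fitted together in edgeR, whose quasi-likelihood test gave each fold change, its standard error and its adjusted p. A gene was called when its adjusted p was under 0.05 and it changed at least 2-fold. With a biological coefficient of variation of 3.254% small changes also passed the p threshold, and 2 samples against 2 cannot give an exact permutation p under 0.333.

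Most of the 10 genes were lower in the cultures with 2i. In F2i against F, 6 of the 10 were called lower and none higher, where 7.00% of all genes tested were called lower and 6.44% higher. Without the 2-fold rule, 9 of the 10 fell at an adjusted p under 0.05, where 27.4% of all genes did. Their median log2 fold change was −1.85, beside −0.003 over all genes. In NB2i against −F, a comparison without feeders on either side, 7 were called lower and none higher, with 16.1% and 11.1% of all genes called lower and higher, and the median was −2.29 beside 0.01. All 10 fell by the adjusted p alone, as did 35.4% of all genes. Spry4, Egr1, Etv4, Dusp6, Dusp4 and Spred1 were called lower in both comparisons, and Ier3 in the second. Spry2 and Etv5, members of the same families as Spry4 and Etv4, kept much of their level, and Fos stayed high in F2i. NB2i also differs from −F in base medium, serum and coating, so there the part of 2i cannot be told apart from theirs. Both inhibitors were present in F2i and in NB2i, so the part of PD0325901 cannot be told apart from that of CHIR99021. In these bulk samples fewer cells of a type and less RNA per cell cannot be told apart. Over both cultures with 2i and both without, all 4 samples with 2i lay below all 4 without for 7 of the 10 genes (every one but Spry2, Fos and Etv5), as was so for 21.7% of all genes tested. The average of F2i and NB2i against that of F and −F also gave 7 genes called lower and none higher, with 12.3% and 7.90% of all genes.

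**Figure D1:**
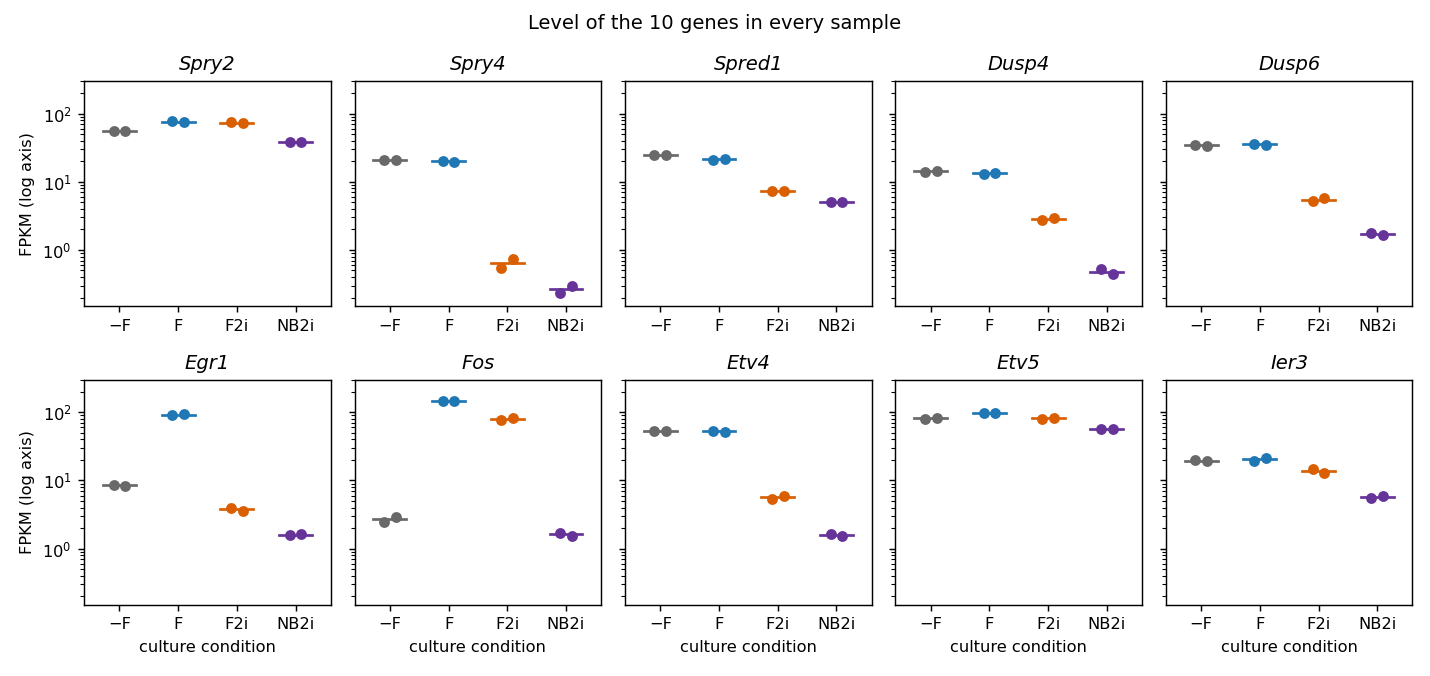
FPKM (log axis) of the 10 genes in each of the 8 samples, with a line at the mean of each culture condition. Spry4, Dusp4, Dusp6 and Etv4 are level in −F and F and drop in F2i and again in NB2i, Spry2 and Etv5 change by less than 2-fold between any 2 conditions, and Egr1 and Fos peak in F.

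Promoters from RefSeq (GRCm38.p6) were searched for 6 of the 10 genes (Spry2, Spred1, Dusp6, Etv5, Fos and Ier3). Those of Spry4, Egr1, Etv4 and Dusp4 were left out of the search, so the motif results do not cover them. Of the 10 genes, Spry4 and Egr1 had the largest falls in F2i against F. The 250 bases before the start site are shown for Dusp6, which fell strongly with 2i, and for Fos and Ier3, the early genes that kept 55.7% and 69.9% of their level when 2i was added on feeders. Motifs were searched on both strands, and capitals mark those found: the letters TATAA, the letters TGACG, and the letters CCAAT, which read as ATTGG when they lie on the minus strand. These 3 short motifs were chosen after the promoters had been read.
Dusp6 promoter: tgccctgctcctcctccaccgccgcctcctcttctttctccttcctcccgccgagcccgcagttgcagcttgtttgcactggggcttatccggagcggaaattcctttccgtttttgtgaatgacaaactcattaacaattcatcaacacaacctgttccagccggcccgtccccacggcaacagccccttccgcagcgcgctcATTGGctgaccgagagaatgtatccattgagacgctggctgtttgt
Fos promoter: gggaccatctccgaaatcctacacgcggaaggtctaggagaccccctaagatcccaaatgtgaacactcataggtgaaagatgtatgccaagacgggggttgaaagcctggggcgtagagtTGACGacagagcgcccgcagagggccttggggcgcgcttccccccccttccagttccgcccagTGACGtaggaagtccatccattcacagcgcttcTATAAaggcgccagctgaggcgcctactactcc
Ier3 promoter: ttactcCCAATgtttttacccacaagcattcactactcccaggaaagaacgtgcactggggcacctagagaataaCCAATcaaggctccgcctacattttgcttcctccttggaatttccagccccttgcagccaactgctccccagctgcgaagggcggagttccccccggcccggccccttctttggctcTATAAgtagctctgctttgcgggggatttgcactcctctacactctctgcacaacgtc
They lie at chr10:99262981-99263230, chr12:85473640-85473889 and chr17:35821463-35821712, all on the plus strand. TATAA, the core of a TATA box, was found in the promoters of Fos and Ier3, beginning 33 and 58 bases before the start, and not in the windows of Dusp6, Spry2, Spred1 or Etv5, and 22.8% of all 32851 promoters in the table hold it. Fos also held TGACG at 2 places (17.8% of promoters), which overlaps by its letters with the full cAMP response element TGACGTCA. CCAAT stood in the windows of Dusp6, Ier3 and Etv5 (33.8%). No window of the 6 genes held the CArG box bound by SRF (1.47%), CCGGAA, an ETS motif (12.0%), TGACGTCA (1.55%) or the AP-1 motif TGANTCA (6.75%). These matches describe the letters in these windows and no binding was measured. Bases further upstream were not searched, so a motif missing here may lie outside the 250 bases.

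The Sprouty and Spred genes covered the whole range of responses. Spry4 (Entrez ID 24066, chromosome 18 from 38586247 to 38601347), an inhibitor that acts upstream of Raf, was at 20.52 and 21.20 FPKM in −F and 20.34 and 19.78 in F, but at 0.54 and 0.74 in F2i and 0.23 and 0.30 in NB2i. The samples with 2i lay far below the others without overlap, while the test did not tell −F from F (adjusted p = 0.66). It fell 30.4-fold in F2i against F (log2 fold change −4.93, standard error 0.094, adjusted p = 4.05e-20), so that 3.29% of the level in F remained. From −F to NB2i it fell 74.5-fold (log2 fold change −6.22, standard error 0.11, adjusted p = 1.43e-21), from 1953 and 2018 counts to 22 and 29, the largest fall among the 10 genes in both comparisons.

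Spred1 (Entrez ID 114715, chromosome 2 from 117121071 to 117182279), which keeps Raf from being activated, was at 24.93 and 25 FPKM in −F, 20.95 and 21.81 in F, 7.27 and 7.44 in F2i and 4.99 and 5.01 in NB2i. Its level stepped down in that order, and each neighbouring pair passed the p threshold. It fell 2.86-fold in F2i against F and 4.72-fold in NB2i against −F (adjusted p = 8.31e-17 and 5.29e-20), leaving 34.9% and 21.2% of the level without 2i.

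Spry2 (Entrez ID 24064, chromosome 14 from 105891947 to 105896819), a homologue of Spry4, was the most abundant of these 3 genes, and its order was different. It stood at 56.14 and 54.99 FPKM in −F, 77.09 and 74.24 in F, 74.08 and 72.66 in F2i and 38.71 and 38.31 in NB2i. The test did not tell F2i from F (log2 fold change −0.01, standard error 0.042, adjusted p = 0.92). It fell 1.38-fold in NB2i against −F and 1.90-fold in NB2i against F2i (adjusted p = 6.45e-09 and 7.40e-14), less than the 2-fold of a call.

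Dusp4 and Dusp6, phosphatases that act on ERK in the nucleus and in the cytoplasm, had levels in −F and F that the test did not tell apart and fell in steps with 2i. Dusp6 (Entrez ID 67603, chromosome 10 from 99263231 to 99267489), whose promoter is printed above, was at 34.52 and 33.92 FPKM in −F, 35.90 and 34.82 in F, 5.18 and 5.71 in F2i and 1.76 and 1.64 in NB2i. That is a 6.31-fold fall in F2i against F (log2 fold change −2.66, standard error 0.063, adjusted p = 7.50e-19) and a 19.2-fold fall in NB2i against −F (log2 fold change −4.26, standard error 0.078, adjusted p = 2.70e-21). Dusp4 (Entrez ID 319520, chromosome 8 from 34807610 to 34819894) was at 14.13 and 14.22 FPKM in −F, 13.15 and 13.54 in F, 2.78 and 2.99 in F2i and 0.52 and 0.44 in NB2i. On feeders 22.2% of its level remained after 2i and in NB2i 3.56% of that in −F, falls of 4.51-fold and 28.1-fold (adjusted p = 3.37e-15 and 3.80e-19). Both genes were lower in NB2i than in F2i, Dusp6 by 3.19-fold and Dusp4 by 5.97-fold (adjusted p = 5.99e-12 and 1.09e-11).

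Etv4 and Etv5 are ETS factors of one subfamily that are switched on by FGF signalling. Etv4 (Entrez ID 18612, chromosome 11 from 101769747 to 101785310) was at 52.82 and 52.20 FPKM in −F, 53.46 and 51.29 in F, 5.40 and 5.84 in F2i and 1.63 and 1.55 in NB2i. The −F and F samples overlapped, and those with 2i lay well below. It fell 9.06-fold in F2i against F (log2 fold change −3.18, standard error 0.061, adjusted p = 4.05e-20) and 31.5-fold in NB2i against −F (log2 fold change −4.98, standard error 0.077, adjusted p = 2.38e-22). Etv5 (Entrez ID 104156, chromosome 16 from 22381313 to 22439570) was at 80.82 and 81.87 FPKM in −F, 96.71 and 97.35 in F, 79.80 and 83.47 in F2i and 56.35 and 57.01 in NB2i. It fell by only 1.16-fold in F2i against F and 1.37-fold in NB2i against −F (adjusted p = 1.47e-04 and 2.16e-09), and F2i was not told apart from −F (adjusted p = 0.16). Hence in NB2i Etv5 was at a mean of 56.7 ± 0.47 FPKM (SD, n = 2) and Etv4 at 1.59 ± 0.057 FPKM, from 81.3 ± 0.74 and 52.5 ± 0.44 FPKM in −F.

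**Figure D2:**
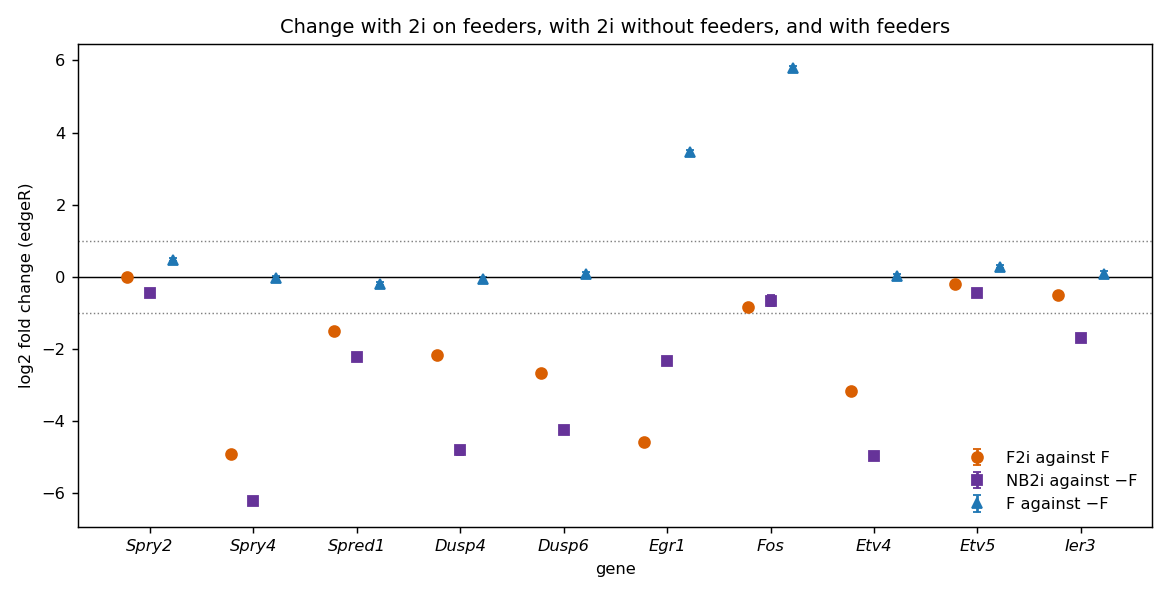
Log2 fold change of each gene, with its standard error (mostly smaller than the symbol), in F2i against F, NB2i against −F and F against −F, with dotted lines at 2-fold. With 2i, Spry4, Dusp4, Dusp6, Egr1, Etv4 and Spred1 lie below the lower line in both comparisons, and with feeders Fos (5.78) and Egr1 (3.47) are the genes above the upper line.

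The early genes Egr1 and Fos had their highest levels in F. In F against −F these 2 of the 10 genes were called higher and none lower, where 5.59% of all genes were called higher and 1.65% lower. Egr1 (Entrez ID 13653, chromosome 18 from 34861207 to 34864956), a zinc finger transcription factor, was at 8.58 and 8.36 FPKM in −F, 90.37 and 94.08 in F, 4.0 and 3.54 in F2i and 1.58 and 1.62 in NB2i. It was 11.1-fold higher in F than in −F (log2 fold change 3.47, standard error 0.053, adjusted p = 2.88e-22). With 2i on feeders it fell 23.8-fold (log2 fold change −4.57, standard error 0.060, adjusted p = 9.80e-23), below its level in −F by 2.15-fold (adjusted p = 4.29e-11). The fall in NB2i against −F was 5.04-fold (adjusted p = 1.36e-15).

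Fos (Entrez ID 14281, chromosome 12 from 85473890 to 85477274), which pairs with Jun proteins to form AP-1, was at 2.48 and 2.90 FPKM in −F, 147.20 and 144.37 in F, 77.22 and 80.96 in F2i and 1.72 and 1.53 in NB2i. The cultures with feeders were high and those without were low, whether or not 2i was present. It was 54.9-fold higher in F than in −F (log2 fold change 5.78, standard error 0.068, adjusted p = 5.62e-24) and fell 1.80-fold in F2i against F (log2 fold change −0.84, standard error 0.043, adjusted p = 3.42e-13), under the 2-fold of a call. In F2i it was still 30.6-fold above −F (adjusted p = 5.04e-23), where Egr1 was below −F. Without feeders it fell 1.58-fold in NB2i against −F, from 107 and 125 counts to 75 and 66 (adjusted p = 2.87e-04). Between NB2i and F2i it differed 48.4-fold (adjusted p = 2.30e-23), against 1.43-fold (Etv5) to 5.97-fold (Dusp4) for the other 9 genes. This pattern was not particular to Fos. Fosb, from the list of other early genes below, had means of 0.56 FPKM in −F, 77.9 in F, 22.7 in F2i and 0.12 in NB2i. In edgeR it was 140-fold higher in F than in −F and 184-fold lower in NB2i than in F2i (adjusted p = 3.69e-24 and 2.47e-22). Unlike Fos, Fosb was called lower in F2i against F (3.34-fold, adjusted p = 3.6e-18). Jun had means of 6.11, 43.4, 17.1 and 3.055 FPKM in the same order.

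Ier3 (Entrez ID 15937, chromosome 17 from 35821713 to 35822911), an early gene linked to cell survival, was not told apart between −F and F, at 19.98 and 19.03 FPKM in −F and 19.52 and 21.06 in F (adjusted p = 0.45). It was at 14.69 and 12.96 FPKM in F2i and 5.55 and 6.00 in NB2i. The fall in F2i against F was 1.43-fold (adjusted p = 2.04e-05) and that in NB2i against −F was 3.22-fold (adjusted p = 1.21e-12), so that the second was a call and the first was not.

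Markers of fibroblasts moved with feeders. All 10 (Col1a1, Col1a2, Col3a1, Postn, Dcn, Lum, Thy1, Fbn1, Prrx1 and Twist2) were called higher in F than in −F, and their summed level was 8.67 to 8.97 FPKM in −F, 188 to 197 in F, 520 to 533 in F2i and 1.52 to 2.05 in NB2i. Lum had no counts in −F or NB2i, and Dcn and Postn had none in NB2i. Col1a1, which makes up much of the sum and had the largest rise of the 10 from F to F2i (3.69-fold), went from 66.03 and 69.63 FPKM to 247.81 and 239.34. In F2i against F, 5 of the 10 (the collagens, Postn and Fbn1) were called higher, and Dcn, Lum and Twist2 did not pass the p threshold (adjusted p = 0.45, 0.12 and 0.78). In NB2i against −F, where no feeders were used, the levels were low but 6 of the 10 were called lower, as were 7 of the 10 ERK genes, at a median log2 fold change of −2.33. Over all genes, 5.59% were called higher in F against −F, 6.44% higher in F2i against F and 16.1% lower in NB2i against −F. Of 7 primitive endoderm markers (Dab2, Gata4, Gata6, Foxa2, Pdgfra, Sox17 and Sox7), 6 were called higher in F than in −F, all but Gata4. The sum of the 7 was 4.55 to 5.60 FPKM in −F, 12.9 to 13.4 in F, 5.16 to 5.41 in F2i and 3.07 to 3.24 in NB2i. Foxa2 and Sox17 were low even in F, at means of 0.275 and 0.28 FPKM. In NB2i against −F, Dab2 and Gata6 were called lower and Sox7 higher, where 16.1% and 11.1% of all genes were. Of 6 heat shock genes taken as a sign of handling, none was called in F against −F, in F2i against F or in NB2i against −F, and their sum, most of it Hsp90aa1, ran from 2601 FPKM in F to 3292 in F2i. The stress-induced Hspa1a and Hspa1b, which share reads, were higher in F than in −F by 1.73-fold and 1.43-fold (adjusted p = 2.33e-04 and 1.19e-04). Hspa1a was called lower in NB2i against F2i (2.02-fold, adjusted p = 4.68e-06) and Hspa1b in NB2i against F (2.03-fold, adjusted p = 6.46e-09). Hspa1a in NB2i against F (1.79-fold) and Hspa1b in NB2i against F2i (1.98-fold) were not called. These 2 genes were higher in the cultures with feeders, by far less than Fos. The other heat shock genes did not follow: in F against −F Hsp90aa1, Hspb1 and Dnajb1 did not pass the p threshold (adjusted p = 0.15, 0.22 and 0.33). Hsph1 was 1.10-fold higher there (adjusted p = 0.019). The part of feeder RNA, endoderm cells and cell separation in the levels of Fos, Egr1 and the other ERK genes was not tested.

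**Figure D3:**
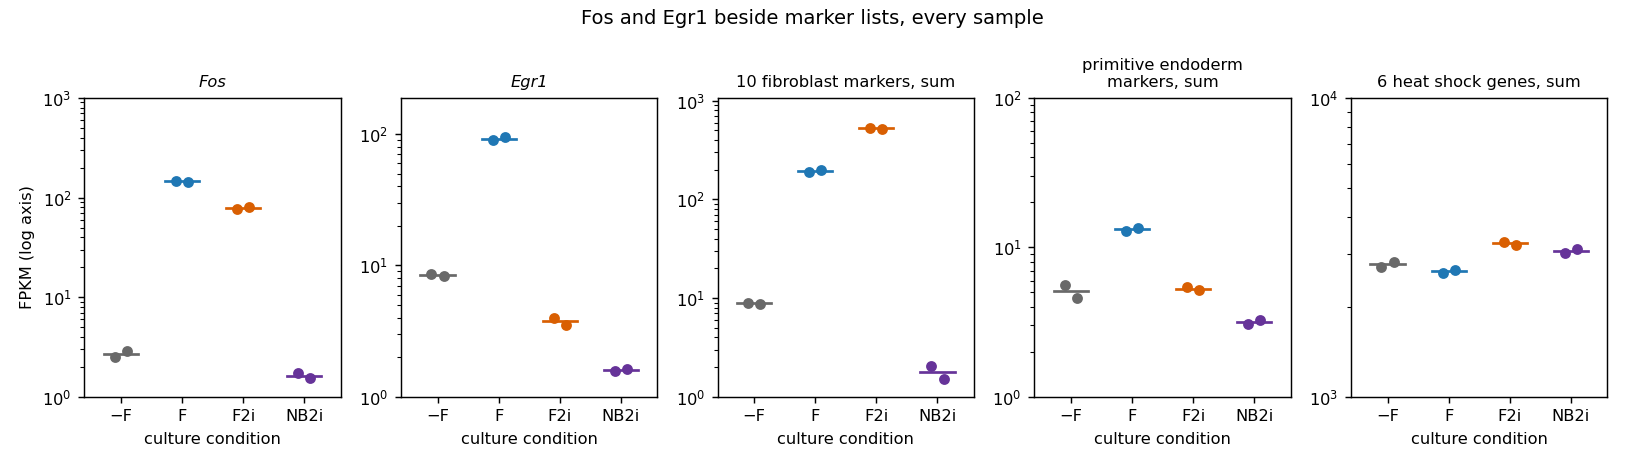
FPKM (log axes, each with its own range) of Fos, Egr1 and the summed marker lists in every sample, with a line at each condition's mean. Fos and the fibroblast sum are both high in F and F2i and low in −F and NB2i, Egr1 and the primitive endoderm sum peak in F, and the heat shock sum stays between 2601 and 3292 FPKM.

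Other early genes were counted beside Egr1 and Fos from a list of 17 (AP-1 partners, Egr2, Egr3, Myc, Etv1 and others). In F against −F, 10 of the 17 were called higher and none lower (median log2 fold change 1.42), where 5.59% of all genes were called higher and 1.65% lower. In F2i against F, 8 were called lower and none higher (median −0.78), and in NB2i against −F 9 were lower and 1 higher (median −2.00). Of all genes, 7.00% were called lower and 6.44% higher in F2i against F, and 16.1% and 11.1% in NB2i against −F. Where the mean of F reached 1 FPKM, the largest falls on feeders were those of Fosl1, an AP-1 subunit, at 7.55-fold, and of Egr2 and Egr3, relatives of Egr1, at 6.69-fold and 5.79-fold (adjusted p = 1.88e-07, 5.46e-12 and 1.90e-08). Egr2 went from 0.13 and 0.10 FPKM in −F to 4.71 and 4.40 in F and back to 0.78 and 0.54 in F2i. Where that of −F did so, the largest falls in NB2i against −F were those of Myc, a driver of growth, at 11.6-fold, Phlda1 at 6.61-fold and the AP-1 subunit Junb at 4.19-fold (adjusted p = 1.41e-16, 4.54e-13 and 1.18e-15). Myc was at 10.50 and 11.89 FPKM in −F and 0.95 and 0.89 in NB2i.

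Among the 13 other Sprouty, Spred and Dusp genes, 12 had enough counts to be tested. In F2i against F, 3 were called lower (Dusp9, Dusp8 and Dusp5, by 3.19-fold, 2.33-fold and 2.13-fold) and 1 higher (Dusp14, by 2.46-fold), with a median log2 fold change of −0.36. In NB2i against −F, 4 were lower and none higher (median −0.68), with Dusp8 under 1 FPKM in both groups and Dusp9, Dusp5 and Spry1 lower by 10.8-fold, 5.88-fold and 3.03-fold (adjusted p = 4.82e-21, 5.32e-12 and 6.86e-13). Dusp9, an ERK phosphatase, was at 87.43 and 87.96 FPKM in −F, 84.11 and 79.95 in F, 24.61 and 25.51 in F2i and 8.56 and 6.88 in NB2i and so stepped down from F to F2i to NB2i. In F against −F, 5 of the 12 were called higher and none lower, where 5.59% of all genes were called higher and 1.65% lower. The study names Dusp1, Dusp9 and Dusp10 as upregulated in ESCs with feeders. Here Dusp1 and Dusp10 were called higher, by 2.63-fold and 3.13-fold, but Dusp9 was not told apart (adjusted p = 0.26). The study also reports more phosphorylated ERK in ESCs with feeders, a protein measure that these RNA levels do not give. Over all genes, 7.00% were called lower and 6.44% higher in F2i against F, and 16.1% and 11.1% in NB2i against −F.

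Few genes of the cascade itself were called. Of 22 genes from adaptor to ERK (Grb2, Sos1, Ras, Raf, MEK and ERK genes among them), none was called in F2i against F or in F against −F, and 1 of them, Braf, was called lower in NB2i against −F, from 12.74 and 12.46 FPKM to 5.40 and 5.43 (2.22-fold, adjusted p = 4.23e-15). By the adjusted p alone, 7 of the 22 fell and 6 rose in F2i against F, and 9 fell and 10 rose in NB2i against −F. The median log2 fold change of the 22 was −0.05 in F2i against F and 0.06 in NB2i against −F. Over all genes, 7.00% were called lower and 6.44% higher in F2i against F, and 16.1% and 11.1% in NB2i against −F. In F against −F these shares were 1.65% and 5.59%. Of the 8 FGF ligand and receptor genes upstream, 4 were called lower in F2i against F and 5 in NB2i against −F, and none higher in either. Fgf4, the most abundant of the 8, rose 1.48-fold and 1.36-fold (adjusted p = 2.54e-10 and 5.19e-09), under the 2-fold of a call. It had means of 80.5 FPKM in F, 116 in F2i, 87.6 in −F and 114 in NB2i. Fgfr1, the most abundant receptor of the list, was not told apart between F and F2i (adjusted p = 0.12). It fell 1.60-fold in NB2i against −F (adjusted p = 2.21e-11). Fgf15, a secreted FGF, and the receptors Fgfr2 and Fgfr3 fell 7.55-fold, 3.42-fold and 3.00-fold in F2i against F and 14.7-fold, 15.8-fold and 25.6-fold in NB2i against −F (adjusted p of 3.63e-10 or lower in the latter). Fgfr2 was at 6.01 and 5.42 FPKM in −F and 0.35 and 0.32 in NB2i. Of the 8 genes for SRF, its partners and related ETS factors, none was called in F2i against F. In NB2i against −F 2 of the 8 were called lower, where 16.1% of all genes were. They were Ets1 by 8.82-fold and Srf by 2.22-fold (adjusted p = 3.82e-11 and 1.01e-14). Srf, which drives Fos and Egr1 through the CArG box, was at 21.07 and 20.52 FPKM in −F, 33.57 and 34.11 in F, 25.08 and 26.17 in F2i and 8.90 and 8.97 in NB2i.

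**Figure D4:**
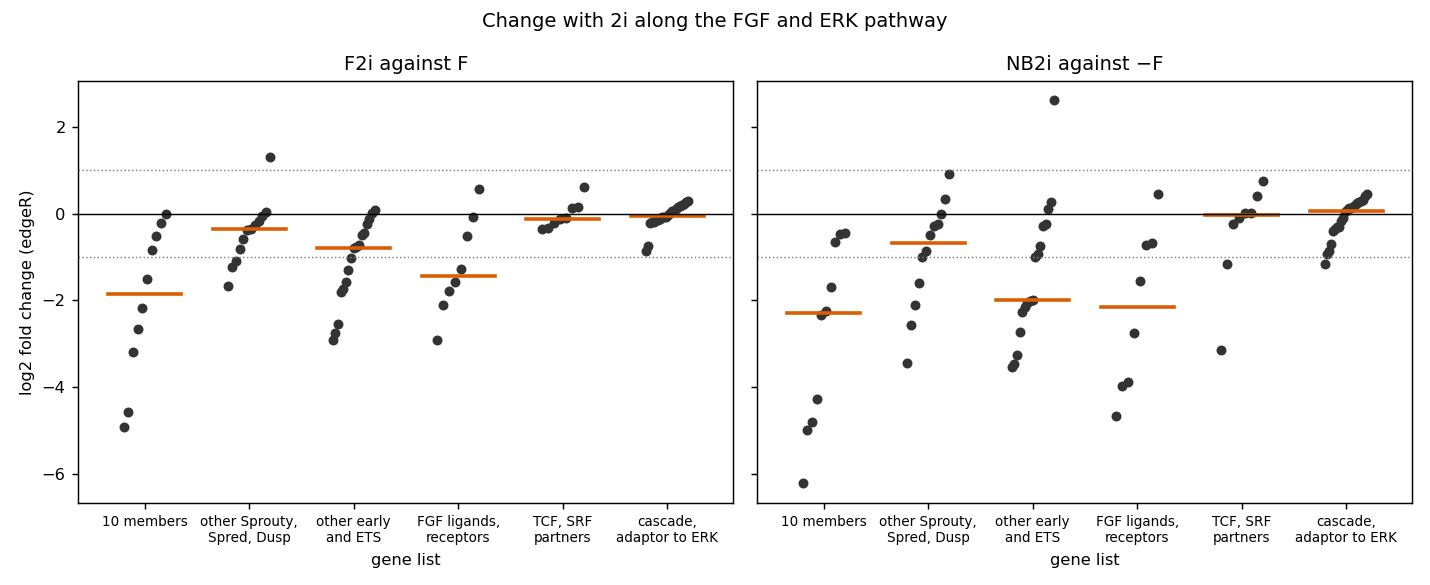
Log2 fold change of every tested gene of each list in F2i against F and in NB2i against −F, with the list's median as an orange line and dotted lines at 2-fold. The 10 members reach −4.93 and −6.22 and have medians of −1.85 and −2.29, the FGF genes have medians of −1.43 and −2.15, and the 22 cascade genes lie between −0.86 and 0.29 and between −1.15 and 0.46, with medians of −0.05 and 0.06.

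Between the cultures with 2i, all 10 genes were lower in NB2i than in F2i at an adjusted p under 0.05, as were 30.8% of all genes, and 7 were called lower and none higher, where 13.3% of all genes were called lower and 6.01% higher. In NB2i against F, 8 were called lower, with 17.6% of all genes. In F2i against −F, 6 were called lower and Fos higher, with 9.82% and 11.7% of all genes. These comparisons share samples with those above. Medium, serum and feeders differ between NB2i and F2i and cannot be told apart.

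The 2i response itself was compared between the cultures with and without feeders as the log2 fold change in NB2i against −F less that in F2i against F, in the same fit. NB2i also differs from −F in base medium, serum and coating, so the absence of feeders cannot be told apart from these. It differed at an adjusted p under 0.05 for 9 of the 10 genes, against 48.9% of all genes tested. For 8 of them (22.8% of all genes) the fall was larger without feeders, by −2.64 on the log2 scale for Dusp4, −1.80 for Etv4, −1.60 for Dusp6, −1.29 for Spry4 and −1.17 for Ier3 (adjusted p between 6.44e-11 and 6.10e-05). Egr1 went the other way (2.24, standard error 0.14, adjusted p = 1.39e-11), as did 26.1% of all genes. Its level without 2i was 11.1-fold lower in −F than in F. For Fos the difference was 0.18 (standard error 0.15, adjusted p = 0.34).

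Profiles over the 8 samples were compared as the root-mean-square difference of log2 CPM (counts scaled to library depth), each gene centred on its own mean. Among the 10 genes, Dusp4, Dusp6 and Etv4 lay close together (0.302 between Dusp4 and Dusp6, 0.311 between Dusp6 and Etv4), and so did Spry2 and Etv5 (0.168). Against 11976 other genes whose mean reached 1 FPKM, the nearest to Dusp6 was Crmp1 (0.129), to Dusp4 Rims4 (0.137), to Etv4 Slc39a14 (0.159), to Spry4 Insm1 (0.258), to Spred1 Rassf3 (0.097) and to Ier3 Pdpn (0.073). Crmp1 had means of 29.2, 25.7, 4.18 and 1.53 FPKM in −F, F, F2i and NB2i. The nearest to Fos was Tm4sf1 (0.216), at 0.015, 3.27, 1.78 and 0 FPKM. Spry2 and Etv5, which themselves vary little (0.384 and 0.267 about their means), were nearest to Peli1 (0.051) and Hspa5 (0.039). The points are 4 conditions in duplicate, so that few patterns are possible.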

How the data were processed

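Poly-A RNA of all 8 samples was read by the authors on a BGISEQ-500 (single-end, 50 bases), and clean reads were aligned to mm10 with Bowtie2 and counted per gene with RSEM. Tool versions are not given in the sources used here. Expected counts, as deposited by the authors, are RSEM's unscaled estimates, and 29.8% were not whole. FPKM, also deposited by the authors, divides them by transcript length and depth. A gene that a sample's list lacks was set to 0. Groups came from the sample titles.

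After rounding, counts of the 15287 genes (of 20278) that reached 10 in 2 or more samples entered edgeR 4.0.16 under R 4.3.3 with TMM scaling, glmQLFit and glmQLFTest, leaving 4 residual degrees of freedom. P-values were adjusted after Benjamini and Hochberg within each comparison over all these genes. Each standard error is the log2 fold change divided by the root of its F. Scripts were tested on simulated data. Chi-square tests of the counts of each replicate pair gave 1.837 to 3.546 per degree of freedom, above sampling noise. Replicate numbers are shared between groups, but same-numbered samples did not deviate together (mean r −0.0036 over 6 pairs of groups). The alternatives tried were DESeq2 (1.42.0) as the test, its size factors within edgeR, other count filters, a fit of the compared groups alone, a replicate block, each sample left out, and limma (3.58.1) fitted to log2 of FPKM after adding a pseudocount of 1 or 0.1, whose fold changes understate those of low genes.

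The 10 genes and all lists were chosen with earlier results of these data known. From each pathway list up to 3 genes each way were named, by largest fold change among those called in F2i against F or in NB2i against −F with at least 1 FPKM in the higher group. Coordinates and promoters are RefSeq's for GRCm38.p6, matched by Entrez ID or symbol. Whether counting used strand is not given in the sources used here. Hspa1a and Hspa1b are near-identical, so their values are uncertain. The gene nearest in profile to Egr1 is not reported here.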

Additional observations from a re-analysis of the deposited data

Results flagged for a closer look

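For 9 of the 10 genes the response to 2i differed between the cultures without feeders (NB2i against −F) and those with feeders (F2i against F) by a test of the difference itself, at an adjusted p under 0.05 in edgeR. The differences, as log2 fold change without feeders less that on feeders, were −0.46 for Spry2, −1.29 for Spry4, −0.72 for Spred1, −2.64 for Dusp4, −1.60 for Dusp6, −1.80 for Etv4, −0.24 for Etv5, −1.17 for Ier3 and 2.24 for Egr1. Of all genes tested, 48.9% differed in this way, 22.8% with a negative and 26.1% with a positive difference. For Spry4 the difference rests on 22 and 29 counts in NB2i and on 51 and 70 in F2i. Fibroblast markers summed to at most 2.05 FPKM in NB2i and at least 520 in F2i, and their part in these differences was not tested. The change of medium and serum that goes with NB2i cannot be told apart from the absence of feeders.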

How the results depend on the processing

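The numbers of the 10 genes called stayed within 1.5 times of the reported ones in 203 of 204 recomputed counts. In the exception, the difference of the 2i response under limma on log2(FPKM + 1), 2 genes in place of 1 were higher, since Fos then passed (0.38, adjusted p = 0.0099). Of 1020 recomputed fold changes, 1008 kept their direction and their side of the thresholds. Spry2 in F2i against F, near 0 throughout, turned to 0.003 with DESeq2, 0.003 with DESeq2's size factors and 0.001 with at least 10 counts in every sample, and ran from −0.022 to 0.019 with each sample left out (0.019 without F replicate 1, 0.008 without F2i replicate 2). Etv4 in F against −F, also near 0, turned to −0.004 under both limma fits and ran from −0.009 to 0.042 with each sample left out (−0.009 without F replicate 1). Under limma on log2(FPKM + 1), Spry4 and Egr1 in NB2i against F2i were at −0.37 and −0.87 and Egr1 in F2i against −F at −0.99, all under 2-fold. Over all genes that fit called 376 lower and 355 higher in F2i against F (1070 and 985 reported), 1103 and 880 in NB2i against −F (2456 and 1696), 703 and 391 in NB2i against F2i (2038 and 918), 29 and 280 in F against −F (252 and 855), 1124 and 783 in NB2i against F (2683 and 1535), 667 and 785 in F2i against −F (1501 and 1786) and 633 and 510 in the average of both cultures with 2i (1882 and 1207). With at least 10 counts in every sample these were, in the same order, 582 and 528, 1410 lower, 951 and 562, 87 and 306, 1368 lower, 879 and 974, and 940 and 739. F against −F had 141 lower with DESeq2 and 148 with limma on log2(FPKM + 0.1). No setting moved the median of all genes by over 0.1. With replicate numbers as a block, 6 and 7 of the 10 genes were again called lower in F2i against F and NB2i against −F, and no call of the 10 genes changed. Depth limits Spry4 and Dusp4 in NB2i, at 22 to 29 counts a sample.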

Other observations

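Atf3, a stress-responsive early gene, rose in NB2i against −F while 9 of the 17 other early genes fell, at 1.01 and 0.91 FPKM in −F and 5.99 and 5.32 in NB2i (6.13-fold higher, adjusted p = 4.09e-13 in edgeR's test), and it was at 11.80 and 12.74 in F and 11.47 and 10.57 in F2i. It was the only gene of that list called higher in that comparison, and was named by the rule on the largest changes. Dusp14, a small dual specificity phosphatase, was the gene of its list called higher in F2i against F, from 6.72 and 7.68 FPKM to 17.42 and 17.15. Mapk3, which encodes ERK1, was singled out after its values were seen: its mean was 59.4 FPKM in −F, 55.9 in F, 29.9 in F2i and 29.6 in NB2i, with log2 fold changes of −0.86 in F2i against F and −0.94 in NB2i against −F (adjusted p = 6.49e-12 and 4.48e-13), just short of a 2-fold call.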
